A study of Mus musculus with 29 samples.

Results

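The first day of normal adipogenic induction was described in 3T3-L1 cells, a clonal line of mouse fibroblast-like preadipocytes that turns into adipocytes after hormonal induction. Vehicle samples of day 0 (n = 3) were compared with vehicle samples of day 1 (n = 3), which are 6 of the 29 RNA-seq samples of the series, over all 11959 genes of the deposited count table. Members were taken from the treatment and day in the sample names, and no expression value was used to choose them. Both groups had received the solvent DMSO from day -2, when the cells were confluent, until day 0, and both are unmodified 3T3-L1 cells. Day 0 cells had been kept in preadipocyte medium only. Day 1 cells had spent a day in differentiation medium with dexamethasone, insulin, isobutylmethylxanthine and a PPARγ agonist. The series also holds vehicle samples of day 2 (n = 3), which stayed in that medium, and cells that had received 10 µM C70, an inhibitor of the KDM5 histone H3K4 demethylases, in place of vehicle from day -2 to day 0. No day 1 sample without the cocktail was included, so the hormones, the change of medium and the passing of a day cannot be told apart. The P values rest on the spread between replicate samples, which the fit estimated over all 29 samples. The labels do not say whether the replicates were separate cultures, so this may not be the spread between cultures.

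Each component of the cocktail acts through a different receptor or enzyme. Dexamethasone activates the glucocorticoid receptor, isobutylmethylxanthine blocks phosphodiesterases so that cAMP and CREB activity rise, insulin acts through its own and the IGF-1 receptor, and the agonist binds PPARγ, the nuclear receptor that switches on genes of lipid uptake and storage. In growth-arrested 3T3-L1 cells C/EBPβ and C/EBPδ come first, the cells re-enter the cell cycle for a limited number of divisions known as mitotic clonal expansion, and PPARγ and C/EBPα then drive the adipocyte genes.

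Expression of 54.1% of the measured genes changed over this day. By edgeR's quasi-likelihood test over all 11959 genes, 3129 genes (26.2%) rose and 3342 (27.9%) fell, where rose and fell mean an adjusted P below 0.05 and a log2 fold change of more than 0.32 in size. A change above 2-fold was found upward in 813 genes (6.80%) and downward in 1221 genes (10.2%). The 3 values of day 0 and the 3 of day 1 did not overlap in 9002 genes (75.3%), and they overlapped in 1 of the 2034 genes that passed 2-fold. The median log2 fold change over all genes was 0.0082, with quartiles of -0.40 and 0.36, against which the list medians of this day are given. Genes that rose more than 2-fold took 3.96% to 3.98% of all counts in the day 0 samples and 13% to 13.2% in the day 1 samples. Genes that fell more than 2-fold went from 18.1% to 18.4% of counts down to 6.0% to 6.23%. Total counts ran from 18504079 to 23795108 in these 6 samples, and replicates of a group differed by more than counting noise in every pair. Values are CPM (counts scaled to the library size) unless a log2 fold change is named, and CPM is not corrected for transcript length, so levels are compared within a gene only. These are bulk samples, in which fewer cells of a type and less RNA per cell cannot be told apart. Every gene in the table exceeded 1 CPM in at least 20 of the 29 samples, so genes expressed at day 0 or day 1 alone are not described here.

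**Figure D1:**
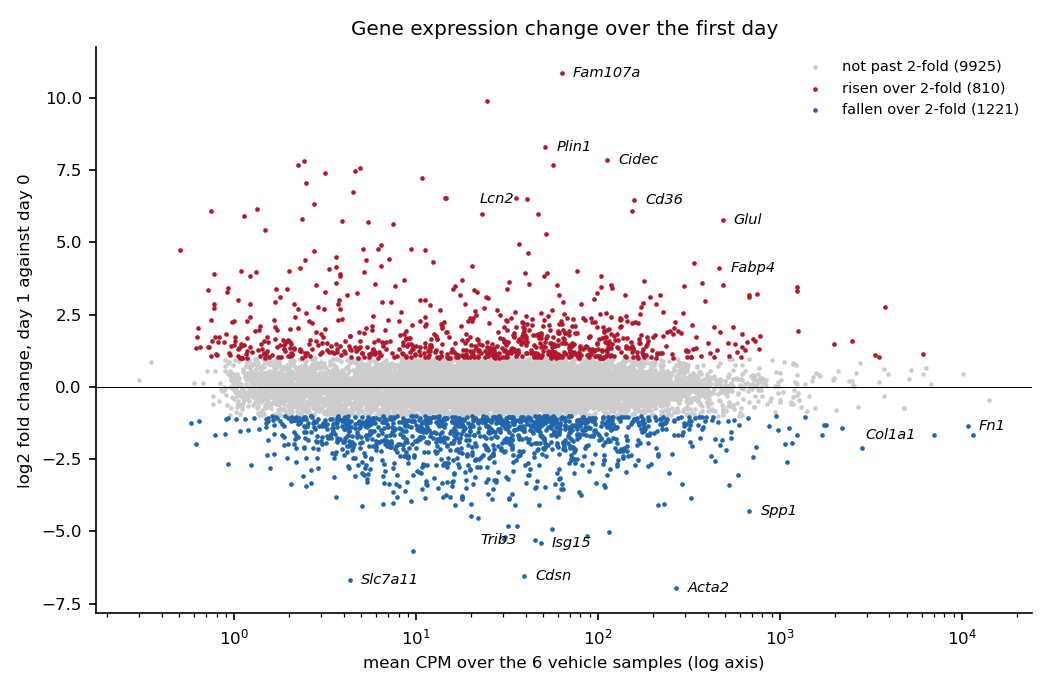
Mean expression of each gene over the 6 vehicle samples (CPM, log axis) against its log2 fold change from day 0 to day 1, with genes that passed the 2-fold threshold coloured and the 3 genes without any count at day 0 left out. Named points include Fam107a and Plin1 at the upper edge and Acta2 at the lower edge.

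The label "adipocyte" was checked against marker genes. At day 0 the libraries held few adipocyte transcripts. Of 16 adipocyte markers 14 were in the table, and their summed level was 1392, 1309 and 1432 CPM at day 0, most of it Lpl, against 5621, 5923 and 5597 CPM at day 1. Of these 14 markers 13 rose, none fell, and the median log2 fold change was 3.62. Pck1 was at a log2 fold change of 0.04 and did not pass. Of 22 preadipocyte and fibroblast markers 18 were measured, and their summed level went from 56267, 59053 and 57239 CPM to 22103, 23057 and 22799 CPM. Among them 16 fell, with a median of -1.06. Pdgfra, a receptor that marks adipocyte progenitors, overlapped between the days at 665, 554 and 642 CPM against 582, 597 and 631 CPM, and Pi16 rose by 2.30 on the log2 scale. Adgre1, Csf1r and Ptprc, the defining macrophage genes, were not in the table. Only Cd68 and Cd14 of the 15 macrophage markers were, and their summed level was 7.81 to 8.91 CPM at day 0 and 4.09 to 4.88 CPM at day 1. None of the 10 endothelial markers was in the table, and the myogenic list was represented by Des alone. Genes in use in nearly all cells, such as mt-Co2, mt-Co3 and Rpl24, were not in the table used here either, so a marker that is not in it cannot be taken as low in these cells.

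The 15 largest rises were taken among genes with a mean of at least 5 CPM over the 6 samples. Plin1, which coats lipid droplets (chr7:79720218-79732903, GRCm38), was at 0.443, 0.312 and 0.186 CPM at day 0 and at 101, 109 and 96.2 CPM at day 1, a log2 fold change of 8.29 ± 0.13 (SE; adjusted P = 5.0e-30). Cidec, which fuses lipid droplets (chr6:113424634-113435760), went from 0.886, 0.935 and 1.07 to 217, 256 and 200 CPM (7.86 ± 0.15, adjusted P = 8.1e-28). Cd36, a fatty acid transporter (chr5:17781690-17888801), went from 4.31, 3.53 and 2.79 to 306, 336 and 299 CPM (6.45 ± 0.09, adjusted P = 2.6e-30). In each of these genes the lowest day 1 sample was far above the highest day 0 sample. Fam107a, a stress gene driven by glucocorticoids (chr14:8296274-8318023), had 4 reads in all at day 0 and 8115 at day 1. Scaled to library totals, its ratio was 2124, with a 95% counting interval of 829 to 7797. Map7d2, a microtubule-binding protein, had 3 reads at day 0 and 3169 at day 1, a ratio of 1106 with an interval of 378 to 5365. Mc5r, a melanocortin receptor that couples to cAMP, had no read at day 0 and 12.9, 15.7 and 13.3 CPM at day 1. With a floor of 3 counts set for the day 0 group its ratio was 314, and the lower end of its 95% counting interval was 255-fold. Fam83a had 9 reads at day 0 and 1386 at day 1, a ratio of 161 with an interval of 84.7 to 353. The other rises among these 15 were Prg4 (7.67), Angptl7 (6.54), G0s2 (6.54), Orm3 (6.52), Lcn2 (6.49), Adamts15 (6.09), Abhd15 (6.0) and Zbtb16 (5.98), all as log2 fold changes. The strand used in counting is not given in the sources used here, and Prg4, Angptl7, G0s2 and Abhd15 overlap genes on the other strand, while Orm3 belongs to a family of near copies, so their reads may include those of other genes.

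The 15 largest falls among genes with a mean of at least 5 CPM over the 6 samples included 8 interferon-stimulated genes. Acta2, smooth muscle α-actin (chr19:34241090-34255590), was at 519, 595 and 492 CPM at day 0 and at 5.43, 3.80 and 3.77 CPM at day 1, a 123-fold fall (log2 fold change -6.94 ± 0.22, adjusted P = 3.3e-22). Cdsn, a gene known for cell adhesion in skin, fell from 77.8, 81.7 and 73.9 to 1.00, 0.564 and 0.895 CPM (-6.55 ± 0.12, adjusted P = 1.4e-28). Spp1, the secreted matrix protein osteopontin, fell from 1257, 1371 and 1248 to 75.6, 63.6 and 59.4 CPM (-4.29 ± 0.08, adjusted P = 7.9e-28). No sample of one day reached the range of the other in these genes. Timp3, an inhibitor of matrix proteases, fell by 4.91 on the log2 scale, and its reads share their region with Syn3 on the opposite strand. Ppef1, a phosphatase, fell by 5.69, and Kif21b, a kinesin, fell by 4.81. The other members of the 15 largest falls were Trib3 and 8 interferon-stimulated genes, which are described with their lists.

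Glucocorticoid-responsive genes rose nearly as a group. Of 26 listed genes 25 were measured, 22 rose, 1 fell and 2 did not pass, and 20 rose more than 2-fold. The list median was a log2 fold change of 2.33. Fkbp5, a chaperone partner of the glucocorticoid receptor, went from 145, 149 and 139 to 1327, 1383 and 1328 CPM, a 9.32-fold rise (3.22 ± 0.04, adjusted P = 8.6e-32). Tsc22d3, the mediator also called GILZ, went from 43.9, 44.5 and 41.2 to 378, 393 and 416 CPM (3.20 ± 0.06, adjusted P = 1.3e-28). Zbtb16, a transcription factor known for strong induction by glucocorticoids, rose from 1.81, 0.935 and 1.53 to 92.0, 92.7 and 92.6 CPM. The days did not overlap in any of these genes. Hif3a had 2 reads at day 0 and 404 at day 1, a ratio of 211 with a counting interval of 58.2 to 1752. Examples from the rest of the count are Glul (glutamine synthetase, 5.78), Hsd11b1 (which regenerates active glucocorticoid, 2.7), Dusp1 (a phosphatase of MAP kinases, 2.27) and Per1 (a clock gene, 1.22). Sgk1, a kinase often used as a glucocorticoid target, went the other way, from 93.8, 95 and 92.2 to 66.1, 64.9 and 66.0 CPM (-0.51 ± 0.04, adjusted P = 2.5e-12), and was at a mean of 93.3 CPM at day 2. Nr3c1, the receptor itself, fell by 0.69 on the log2 scale.

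The cAMP list split. Of 21 measured members of 30, 11 rose, 5 fell and 5 did not pass, with a median of 0.38, which was 0.893 without the tertile of genes with the lowest expression. Some of the phosphodiesterases, which end the cAMP signal, were among the rises. Pde3b went from 14.9, 14.1 and 13.4 to 79.6, 86.1 and 84.0 CPM (2.56 ± 0.09, adjusted P = 2.9e-21), Pde4d rose by 1.66 and Pde4b by 1.14. Pde4a, an example of the falls, was at -0.62. Rgs2, an inhibitor of G protein signalling, rose 3.94-fold from 51.4, 39.5 and 44.5 to 178, 172 and 185 CPM. The early-response genes did not move together. Nr4a1 rose 2.01-fold, while its relative Nr4a2 fell from 5.80, 7.69 and 6.22 to 2.46, 3.29 and 2.26 CPM and Fosb fell 2.06-fold. Crem, a CREB-family member, passed the threshold at a log2 fold change of 0.38, but its samples overlapped between the days at 3.18, 2.86 and 3.90 against 3.70, 4.51 and 4.76 CPM. Its adjusted P was 0.096 without day 0 replicate 1, 0.14 without day 0 replicate 2, 0.090 without day 1 replicate 2 and 0.13 without day 1 replicate 3, and the call was lost in each case.

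Targets of PPARγ rose in 32 of 34 measured members of 40, with 24 above 2-fold and a median of 1.73. Fabp4, the fatty acid chaperone of adipocytes (chr3:10204088-10208576), went from 50.8, 49.6 and 51.3 to 923, 930 and 784 CPM, a 17.4-fold rise (4.12 ± 0.09, adjusted P = 8.7e-26). Acsl1, which activates fatty acids to acyl-CoA, rose 19.5-fold, Pnpla2, the triglyceride lipase ATGL, 12.6-fold, and Angptl4, a secreted lipase inhibitor, 12-fold. Lpl, lipoprotein lipase, was already at 1250, 1170 and 1291 CPM at day 0 and reached 3669, 3837 and 3800 CPM (1.61 ± 0.05, adjusted P = 8.3e-23). Plin2, the droplet protein of most cell types, rose 1.92-fold. The exceptions were Cpt1a, which carries fatty acids into mitochondria and fell by 0.47 on the log2 scale, and Acadl, at 0.25 and below the fold threshold. Adipoq, the adipokine adiponectin, was at 0.403, 0.260 and 0.186 CPM at day 0 and at 14.2, 16.9 and 12.8 CPM at day 1, and its mean was 493 CPM at day 2.

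**Figure D2:**
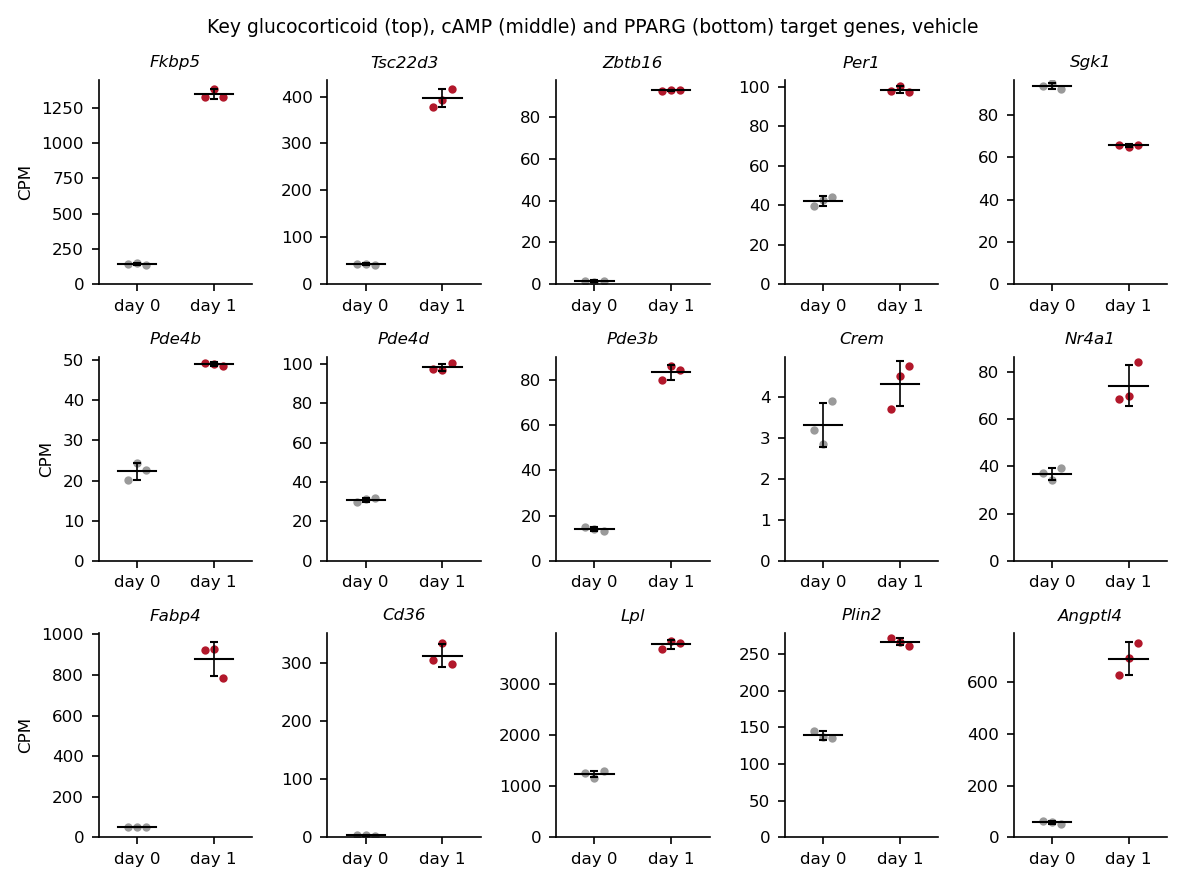
CPM of 15 genes in the 3 vehicle samples of day 0 and the 3 of day 1, by row glucocorticoid-responsive genes, cAMP-linked genes and targets of PPARγ; dots are samples, lines are means and bars are the SD, and every axis starts at 0. The days separate in each panel except Crem, and Sgk1 is the panel in which day 1 lies lower.

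The transcription factors of adipogenesis were at different stages. Of 23 early regulators 10 rose, 8 fell and 5 did not pass. Cebpd went from 14.7, 16.8 and 12.8 to 104, 116 and 123 CPM (2.96 ± 0.13, adjusted P = 2.0e-18), and Cebpb from 72.5, 76.4 and 65.2 to 118, 165 and 170 CPM (1.08 ± 0.17, adjusted P = 1.3e-06). Klf5, which acts downstream of both, rose 3.90-fold, whereas Klf4, which acts upstream of Cebpb, fell 9.20-fold from 46.2, 52.0 and 47.4 to 4.93, 5.35 and 5.51 CPM. Both C/EBP genes overlap genes on the other strand. Of 11 measured late regulators 10 rose and 1, Rora, fell, with a median of 1.77. Cebpa, the C/EBP of the mature adipocyte, went from 13.5, 11.9 and 11.1 to 98.1, 118 and 113 CPM (3.16 ± 0.10, adjusted P = 3.0e-22). Pparg itself rose only 1.5-fold, from 50.4, 54.8 and 55.0 to 78.1, 83.4 and 78.6 CPM (0.58 ± 0.06, adjusted P = 3.7e-10). Bcl6, a repressor of transcription, rose 14.2-fold, Srebf1, the regulator of lipogenesis, 4.17-fold and Lpin1, a phosphatidate phosphatase and coactivator, 4.74-fold. Of 25 measured factors that restrain adipogenesis 14 fell, 6 rose and 5 did not pass. Dlk1, or Pref-1, went from 2579, 2666 and 2470 to 1018, 1034 and 1033 CPM, Gata2 fell 7.92-fold and Klf7 3.5-fold. Foxo1 rose 3.40-fold and Foxc2 1.95-fold, and Irf4, with 8 reads at day 0 and 84 at day 1, had a ratio of 11 with a counting interval of 5.33 to 26.3.

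Most measured genes of lipid droplets rose, and those of fatty acid and triglyceride synthesis were divided. Of 21 measured genes of droplets, lipolysis and caveolae 15 rose, 5 fell and 1 did not pass, with a median of 1.40. The falls were Cav1, Cav2 and Cavin3, which build caveolae, Plin3 and the receptor Adra2a. G0s2, which inhibits ATGL, went from 0.242, 0.416 and 0.279 to 30.6, 34.2 and 22 CPM. Of 28 measured genes of fatty acid and triglyceride synthesis 14 rose, 3 fell and 11 did not pass, with a median of 0.30. Dgat2, which makes triglyceride, rose 15.2-fold from 5.76, 6.75 and 6.96 to 100, 109 and 86.3 CPM, and Gpat3, an acyltransferase, rose 11.7-fold. Pcx, pyruvate carboxylase, rose 8.64-fold, Scd1, a desaturase, 4.22-fold, and Fasn, fatty acid synthase, 2.63-fold. Acly, which supplies cytosolic acetyl-CoA, was at -0.19 and did not pass. Fads1 and Fads2, the desaturases of polyunsaturated fatty acids, fell 3.86-fold and 3.51-fold, the former from 283, 309 and 307 to 82.1, 73.3 and 77.8 CPM. Of 16 measured adipokines and secreted factors 11 rose, including Retn with 9 reads at day 0 and 497 at day 1 (ratio 57.8, counting interval 30.2 to 127) and Cfd at a log2 fold change of 3.39, while Sparc, Angptl2, Igf1 and Metrnl fell.

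Interferon-stimulated genes fell without exception among those measured. Of 38 listed genes 31 were in the table, all 31 fell, 27 of them more than 2-fold, and the median log2 fold change was -2.64. These genes encode antiviral effectors and parts of antigen presentation, and most are switched on by factors that the interferon receptors activate. The promoters of Isg15 and Ifit1 are given from RefSeq (GRCm38.p6), from 250 bases before to 50 bases after the start, because both hold the interferon-stimulated response element close to their start. Capitals mark matches to TTTC, 2 bases of any kind and TTTC, on either strand. Isg15 lies on the minus strand at chr4:156200769-156201068 and has 3 overlapping matches, the first from -78 to -69. Ifit1 lies on the plus strand at chr19:34640639-34640938 and has 2, from -104 to -95 and from -85 to -76.
Isg15: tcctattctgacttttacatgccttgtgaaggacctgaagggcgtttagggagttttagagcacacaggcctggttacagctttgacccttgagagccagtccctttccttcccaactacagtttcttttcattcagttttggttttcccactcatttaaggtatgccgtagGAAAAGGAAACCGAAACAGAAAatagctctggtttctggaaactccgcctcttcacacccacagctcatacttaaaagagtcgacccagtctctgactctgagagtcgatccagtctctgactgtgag
Ifit1: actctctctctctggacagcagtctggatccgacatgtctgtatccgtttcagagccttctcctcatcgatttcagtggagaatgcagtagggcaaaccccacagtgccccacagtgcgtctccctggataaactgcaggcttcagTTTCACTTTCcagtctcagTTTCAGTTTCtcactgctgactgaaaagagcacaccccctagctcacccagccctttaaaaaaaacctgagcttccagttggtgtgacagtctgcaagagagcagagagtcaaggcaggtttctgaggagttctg
The motif was found in 10 of 27 promoters of the list (37.0%), in 2.83% of the promoters of all genes tested, in 1.75% of those of genes that rose above 2-fold and in 4.40% of those that fell above 2-fold. A match describes letters in this window and is not a binding site.

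Isg15, a ubiquitin-like modifier (gene at chr4:156199424-156200818), went from 106, 93.5 and 84.2 CPM to 2.46, 2.44 and 1.74 CPM, a 42.5-fold fall (-5.41 ± 0.17, adjusted P = 2.3e-22). Ifit1, which binds foreign RNA, went from 184, 168 and 158 to 5.20, 6.10 and 2.83 CPM (-5.17 ± 0.29, adjusted P = 2.5e-16). Oas2, a sensor of double-stranded RNA, went from 67.2, 50.6 and 59.1 to 2.37, 1.55 and 0.660 CPM (-5.26 ± 0.26, adjusted P = 1.1e-17). No day 1 sample of these genes came near the range of day 0. Ifit2 (-5.19), Oasl2 (-5.03), Usp18 (-4.81), Xaf1 (-4.54) and Gbp2 (-4.45) complete the 8 members among the 15 largest falls, and the Ifit, Oas and Gbp families have close copies between which reads may be split. Upstream factors were among the falls, and as examples of the count Stat2 was at -2.20 and Irf9 at -2.18. B2m, the light chain of MHC class I, fell 2.69-fold from 1745, 1592 and 1590 to 690, 563 and 576 CPM. At day 2 Isg15 was at a mean of 0.719 CPM.

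Of 26 measured inflammatory genes of 43, 15 fell, 8 rose and 3 did not pass, with a median of -0.72. Ccl2, Cxcl10 and Il6 were among the 17 not in the table, so the median describes the measured members only. Csf1, the macrophage growth factor, fell 7.67-fold from 250, 251 and 251 to 37.8, 29.4 and 30.8 CPM, and the chemokine Ccl9 fell 8.95-fold. C3, complement component 3, rose 10.9-fold from 210, 206 and 210 to 2179, 2410 and 2240 CPM, Saa3 18-fold and Lcn2 89.9-fold, and Nfkbia, the inhibitor of NF-κB, was at 1.52. Lcn2 was also on the glucocorticoid list.

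Genes of the contractile apparatus fell. Of 29 measured members of 34, 28 fell, 20 of them more than 2-fold, none rose, and the median was -1.35. Cnn2, a calponin, went from 415, 411 and 384 to 24.1, 24.2 and 23.9 CPM, a 16.8-fold fall (-4.07 ± 0.12, adjusted P = 8.1e-23). Tagln, an actin-bundling protein also called SM22, fell 15.4-fold from 16.6, 20.7 and 15.5 to 1.41, 0.939 and 1.04 CPM, and it overlaps Pcsk7 on the other strand. Actb, the cytoplasmic actin often used as a reference gene, was at -1.41 and Srf, the factor that drives many of these genes, at -0.66, both as examples of the falls. Ccn1 and Ccn2, targets of YAP and TAZ, fell 1.55-fold and 3.17-fold. CArG boxes, the sites of SRF, were in 4 of 28 promoters of the list (14.3%) and in 1.28% of all promoters tested.

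Matrix genes moved in both directions. Col1a1, a chain of interstitial collagen, fell from 10437, 11107 and 10546 to 3131, 3510 and 3545 CPM, Col3a1 fell 1.67-fold and Col12a1 6.08-fold. Col4a1, a chain of basement membrane collagen, rose from 3747, 3949 and 3792 to 8289, 8481 and 8266 CPM, and Lamb1, a laminin chain, rose 1.76-fold. Over all 38 measured collagens and collagen enzymes 13 rose, 17 fell and 8 did not pass, with a median of -0.26. Lox, which cross-links collagen, fell 3.84-fold and Loxl4 9.06-fold, while Plod2, a lysyl hydroxylase, rose 4.30-fold. Of 36 measured members of 45 other matrix and adhesion genes 23 fell and 5 rose, with a median of -0.85. Fn1, fibronectin, went from 14509, 16460 and 15541 to 6466, 5992 and 5766 CPM, and Thbs1, thrombospondin 1, fell 10.5-fold from 928, 1005 and 931 to 88.4, 90.9 and 94.6 CPM. Vcan, the proteoglycan versican, rose 2.18-fold and was at a mean of 1217 CPM at day 2, below its 2089 CPM at day 0. Col4a1 is transcribed head to head with Col4a2, which was at 1.05, and the strand of counting is not given in the sources used here. Of 31 measured matrix proteases and inhibitors 15 fell and 11 rose. Adamts15, which cleaves versican, went from 5.44, 3.48 and 4.18 to 295, 318 and 295 CPM, Adamts12 rose 9.05-fold and Adam12 8.55-fold. Mmp13, a collagenase, fell 8.17-fold and Mmp3 9.73-fold, and Adamts5 fell 4.31-fold.

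**Figure D3:**
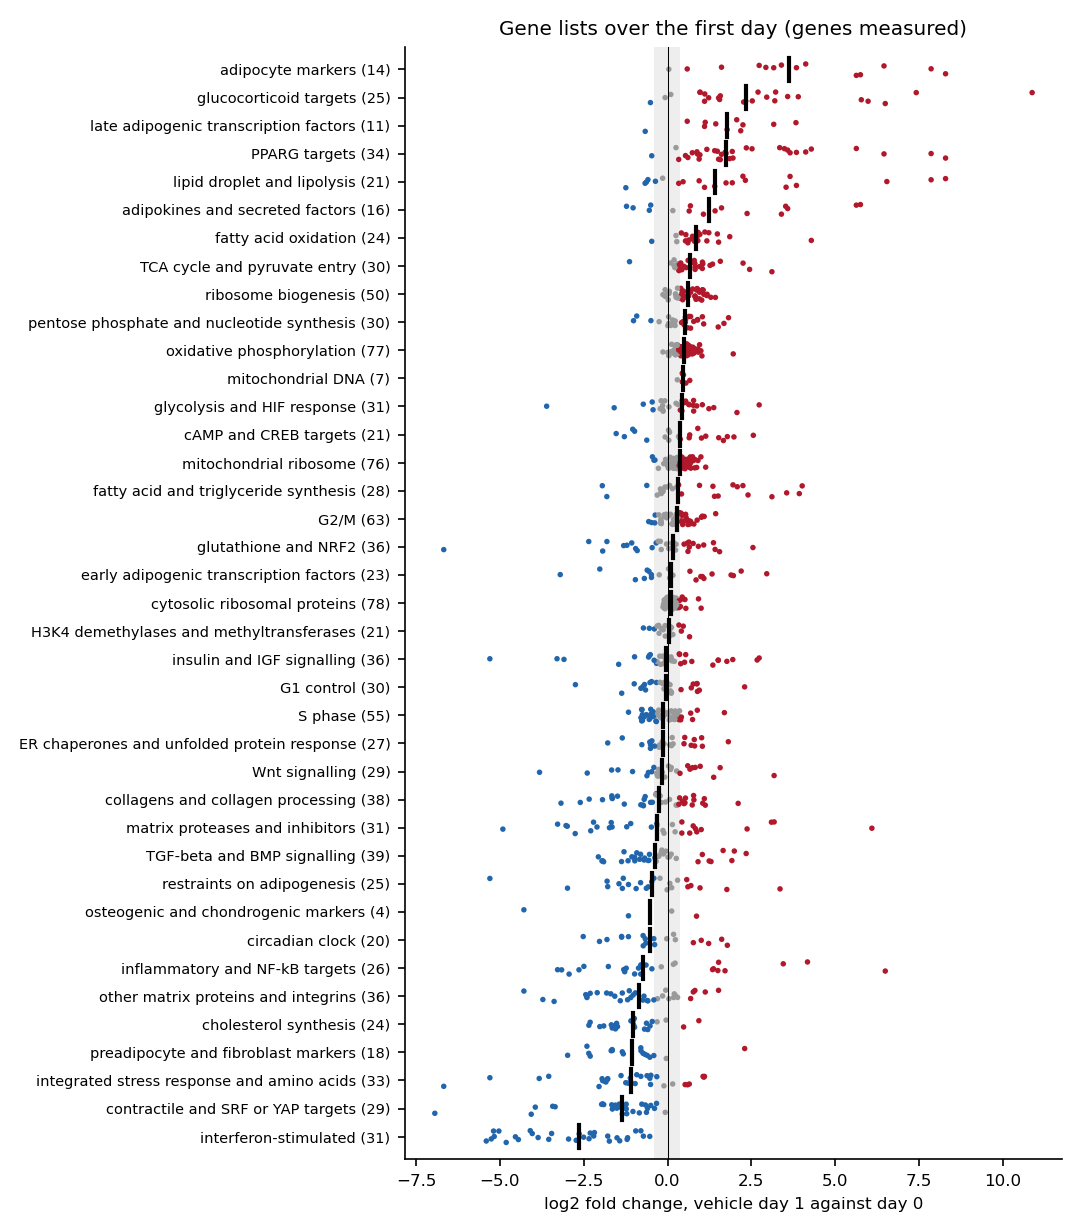
Log2 fold change from day 0 to day 1 of every measured gene of each list, one row a list; red dots rose, blue dots fell and grey dots did not pass the test, the black bar is the list median and the grey band spans the quartiles of all genes, -0.40 to 0.36. Adipocyte markers (median 3.62) and glucocorticoid-responsive genes (2.33) lie farthest right and interferon-stimulated genes (-2.64) farthest left.

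Genes of the integrated stress response, which ATF4 drives when amino acids are short or translation is slowed, fell. Of 33 measured members of 37, 25 fell, 17 of them more than 2-fold, 6 rose and 2 did not pass, with a median of -1.10. Trib3, a pseudokinase induced by ATF4, went from 83.2, 96.4 and 83.8 to 2.60, 1.83 and 2.21 CPM, a 39.4-fold fall (-5.30 ± 0.16, adjusted P = 7.2e-23). Slc7a11, the cystine transporter (chr3:49892526-50443614), had 564 reads at day 0 and 5 at day 1 and was 108-fold lower, with a counting interval of 45.9 to 333. Atf4 went from 246, 274 and 254 to 108, 128 and 118 CPM (-1.13 ± 0.09, adjusted P = 1.4e-12). Ddit3, or CHOP, fell 3.45-fold and the glycine transporter Slc6a9 14.2-fold. The rises included Slc1a5, a glutamine transporter, at 2.14-fold and Mthfd2, a mitochondrial folate enzyme, at 1.51-fold. Asns, asparagine synthetase, fell 2.26-fold from 179, 194 and 176 to 83.7, 81.6 and 76.8 CPM. Its promoter (RefSeq, GRCm38.p6, chr6:7693160-7693459, minus strand) is shown because it holds the C/EBP-ATF element through which amino acid shortage acts. Capitals mark the match to TGATGCAA or TGATGAAA on either strand, from -23 to -16.
Asns: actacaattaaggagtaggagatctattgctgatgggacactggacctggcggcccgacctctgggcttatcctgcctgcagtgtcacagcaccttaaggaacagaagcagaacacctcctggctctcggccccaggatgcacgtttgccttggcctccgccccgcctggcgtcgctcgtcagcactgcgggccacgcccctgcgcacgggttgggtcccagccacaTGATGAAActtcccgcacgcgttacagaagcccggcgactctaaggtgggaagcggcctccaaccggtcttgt
This element was in 9 of 34 promoters of the list (26.5%) and in 1.08% of all promoters tested.

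Cholesterol synthesis fell on the first day and was higher again a day later. Of 24 measured genes of 25, 20 fell, 13 of them more than 2-fold, 2 rose and 2 did not pass, with a median of -1.02. Fdft1, squalene synthase, went from 79.3, 87.3 and 79.6 to 18.8, 15.9 and 14.8 CPM (-2.31 ± 0.08, adjusted P = 6.5e-21), and shares its region with Ctsb on the other strand. Sqle, squalene epoxidase, went from 145, 168 and 149 to 48.2, 51.6 and 44.7 CPM (-1.68 ± 0.07, adjusted P = 8.6e-20). Acat2 and Dhcr7 were the rises, at 1.91-fold and 1.39-fold. Insig1, which holds the SREBP complex in the endoplasmic reticulum, went from 137, 150 and 147 to 71.4, 76.3 and 70.3 CPM and was at a mean of 617 CPM at day 2. Between day 1 and day 2 all but 2 of the 24 genes rose and none fell, against 22.3% and 22% of all genes that rose and fell in that comparison, which uses the same day 1 samples. The promoter of Hmgcs1 (RefSeq, GRCm38.p6, chr13:119690101-119690400, plus strand), HMG-CoA synthase, is shown for its NF-Y boxes. Capitals mark the 4 matches to CCAAT on either strand, the first from -237 to -233.
Hmgcs1: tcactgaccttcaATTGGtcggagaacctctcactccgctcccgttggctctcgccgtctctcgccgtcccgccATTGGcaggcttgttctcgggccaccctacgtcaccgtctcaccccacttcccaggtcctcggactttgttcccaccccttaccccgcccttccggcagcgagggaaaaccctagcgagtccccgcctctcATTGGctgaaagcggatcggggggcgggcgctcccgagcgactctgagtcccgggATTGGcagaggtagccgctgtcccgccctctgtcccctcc
Hmgcs1 fell 1.51-fold, from 224, 249 and 248 to 167, 163 and 148 CPM. NF-Y boxes were in 16 of 20 promoters of the list (80.0%), in 38.2% of all promoters tested, in 39.0% of those of genes that rose above 2-fold and in 33.5% of those that fell above 2-fold. The exact sterol regulatory element was in 0 of the 20 promoters of the list.

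Most measured genes of the respiratory chain, the TCA cycle, fatty acid oxidation and ribosome biogenesis rose. Of 77 measured nuclear genes of the respiratory chain 55 rose, none fell and 22 did not pass, with a median of 0.50 and 2 members above 2-fold. Of 30 genes of the TCA cycle and pyruvate entry 24 rose, with a median of 0.67. Idh3a, a subunit of isocitrate dehydrogenase, went from 43.4, 45.1 and 43.5 to 236, 249 and 234 CPM (2.45 ± 0.05, adjusted P = 7.3e-27), and Mpc2, the mitochondrial pyruvate carrier, rose 4.76-fold. Pdk3, a kinase that inhibits pyruvate dehydrogenase, was the fall, at 2.20-fold, while its relative Pdk4 rose 2.97-fold. Of 24 measured genes of fatty acid oxidation 21 rose, 1 fell and 2 did not pass, with a median of 0.84. Cpt2 went from 32.8, 32.3 and 34.4 to 110, 124 and 126 CPM, in contrast to Cpt1a, which went from 210, 197 and 209 to 145, 138 and 160 CPM. Of 76 proteins of the mitochondrial ribosome 41 rose and 3 fell. Of 50 ribosome biogenesis genes 36 rose, none fell and 14 did not pass, with a median of 0.61, and Ftsj3, an rRNA-processing factor, rose 2.69-fold from 45.9, 50 and 43.1 to 124, 127 and 122 CPM. Of 78 cytosolic ribosomal proteins 9 rose and none fell, with a median of 0.09, and reads of these genes can be shared with their many pseudogenes.

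Glycolysis and the pentose phosphate pathway rose in part. Of 31 measured genes of glycolysis and the hypoxia response 17 rose, 5 fell and 9 did not pass, with a median of 0.42. Ldha, lactate dehydrogenase, rose 2.05-fold from 350, 464 and 383 to 794, 926 and 733 CPM, and Adm, adrenomedullin, fell 12.2-fold. The insulin-sensitive transporter Slc2a4, or GLUT4, was at 1.41, 1.83 and 0.801 CPM at day 1, against 0.201, 0.156 and 0.232 CPM at day 0, and Slc2a1, or GLUT1, overlapped between the days at 109, 104 and 106 against 105, 121 and 102 CPM. Of 30 genes of the pentose phosphate pathway and nucleotide synthesis 18 rose and 3 fell, with a median of 0.51. Taldo1, transaldolase, rose 3.52-fold, Ctps, CTP synthase, 3.20-fold, Pgd 2.85-fold and G6pdx 2.11-fold, the last from 73.4, 75.3 and 74.9 to 152, 166 and 154 CPM. Shmt2 and Mthfd1l, folate enzymes of mitochondria, fell 1.89-fold and 2.02-fold.

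Cell cycle genes did not move as a block. Among regulators of G1, Ccnd1, cyclin D1 (chr7:144929931-144939925), went from 220, 233 and 215 to 33.4, 33.3 and 32.6 CPM, a 6.72-fold fall (-2.75 ± 0.09, adjusted P = 2.7e-22). Ccnd3 rose 1.70-fold and Ccnd2 fell 1.39-fold. Myc went from 18.5, 24 and 21.1 to 102, 113 and 95.7 CPM (2.30 ± 0.07, adjusted P = 4.8e-23). The inhibitors Cdkn1b, Cdkn2a and Cdkn2b fell 1.58-fold, 1.99-fold and 2.58-fold, and Cdkn1a was at a log2 fold change of 0.11 and did not pass. Among 30 measured G1 regulators 8 rose, 10 fell and 12 did not pass, beside 26.2% of all genes that rose and 27.9% that fell.

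Of 55 measured S phase genes 7 rose, 20 fell and 28 did not pass, with a median of -0.15. Ccne2, a cyclin of S phase entry, went from 4.31, 4.57 and 4.09 to 13.9, 14.8 and 13.1 CPM, Rrm2, a subunit of ribonucleotide reductase, rose 1.85-fold and Ccne1 1.67-fold. Mcm2, a subunit of the replicative helicase, fell from 108, 119 and 101 to 62.1, 65.6 and 63.6 CPM (-0.78 ± 0.06, adjusted P = 2.4e-12). Pcna, the replication clamp, overlapped between the days at 55.7, 65.8 and 52.5 against 59.6, 56.8 and 56.5 CPM. Of 63 G2 and M phase genes 29 rose, 4 fell and 30 did not pass, with a median of 0.28, and 4 rose above 2-fold. Top2a, topoisomerase II, went from 107, 132 and 104 to 217, 252 and 261 CPM (1.09 ± 0.08, adjusted P = 9.1e-13), and Hjurp, a centromere chaperone, rose 2.7-fold. Mki67, the proliferation marker, was at 0.28, below the fold threshold. Ccna2, cyclin A2, overlapped between the days at 40.0, 47.2 and 42.1 against 43.9, 52.4 and 54.0 CPM (adjusted P = 0.055). Ccnb1, which has a named pseudogene, rose 1.57-fold and Cdk1 1.30-fold. Without day 1 replicate 3 the log2 fold change of Cdk1 went from 0.38 to 0.32, just under the threshold.

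The promoter of Plk1, a mitotic kinase (RefSeq, GRCm38.p6, chr7:122159185-122159484, plus strand), is shown for its cell cycle homology region. Capitals mark the match to TTTGAA or TTCGAA on either strand, from 30 to 35 after the start.
Plk1: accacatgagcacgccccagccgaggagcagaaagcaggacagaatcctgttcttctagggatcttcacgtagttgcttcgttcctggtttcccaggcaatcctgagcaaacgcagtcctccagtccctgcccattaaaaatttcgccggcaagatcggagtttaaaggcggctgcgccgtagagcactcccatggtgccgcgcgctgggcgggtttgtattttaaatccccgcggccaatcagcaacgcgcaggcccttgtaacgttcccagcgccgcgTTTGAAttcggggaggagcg
Plk1 went from 23.7, 28 and 20.1 to 33.5, 35.6 and 36.7 CPM, a 1.47-fold rise. The element was in 43 of 58 promoters of the G2 and M phase list (74.1%) and in 13.7% of all promoters tested, and NF-Y boxes were in 45 of the 58 (77.6%). E2F sites, TTCCCGCC or TTTCGCGC on either strand, were in 17 of 53 promoters of the S phase list (32.1%) and in 4.75% of all promoters tested.

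**Figure D4:**
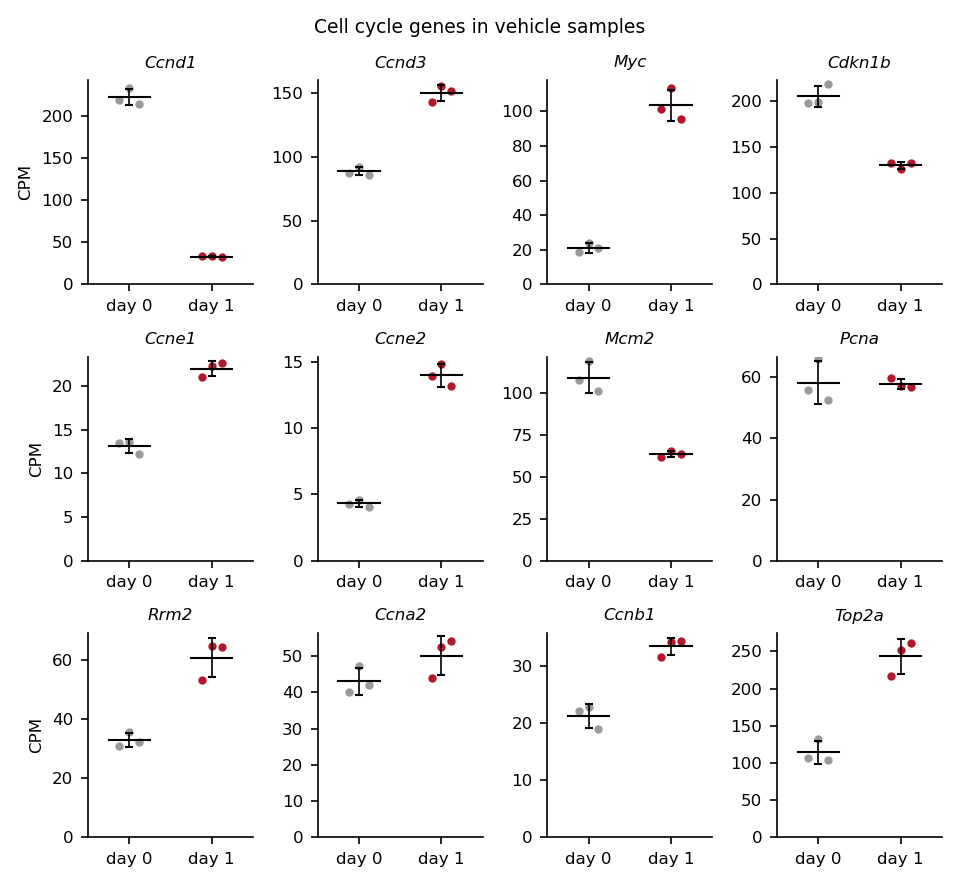
CPM of 12 cell cycle genes in the 3 vehicle samples of day 0 and the 3 of day 1; dots are samples, lines are means, bars are the SD and every axis starts at 0. Ccnd1, Cdkn1b and Mcm2 lie lower at day 1, Myc and Ccne2 lie higher, and Pcna and Ccna2 overlap.

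Sequence elements of the hormone receptors were rare in these windows. RefSeq promoters were found for 9007 of the 11959 genes. The full cAMP response element TGACGTCA was in 3.07% of all promoters tested, 2.50% of those of genes that rose above 2-fold and 1.6% of those that fell above 2-fold, and in 0 of 29 promoters of the cAMP list. The palindromic C/EBP site TTGCGCAA was in 0.322%, 0.501% and 0.320%, and the E-box CACGTG in 10.0%, 8.76% and 8.64%. The exact glucocorticoid response element was in 1 of 11494 promoters, the direct repeat of PPAR and RXR in 4 and the sterol regulatory element in 4. For the glucocorticoid element, the glucocorticoid list had 1 match in 32 promoters, genes that fell had 1 and genes that rose had 0. No match says only that these letters are not in the window.

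The insulin and Wnt lists moved in both directions, as did all genes, of which 26.2% rose and 27.9% fell. Of 36 measured insulin and IGF genes 13 rose, 10 fell and 13 did not pass. Tbc1d4, a regulator of GLUT4 traffic, rose 6.36-fold, Igfbp4, a binding protein of IGF, 3.84-fold and Irs2 2.85-fold, while Grb14, an inhibitor of the insulin receptor, fell 9.84-fold from 26, 27.5 and 27.3 to 2.60, 2.82 and 2.78 CPM and Igfbp3 fell 8.52-fold. Irs1 fell 1.48-fold. Of 29 measured Wnt genes of 52, 9 rose, 9 fell and 11 did not pass. The 23 not in the table include Wnt10b, Axin2 and Sfrp1, so these counts do not cover the pathway. Wnt4 went from 3.63, 3.33 and 3.48 to 31.7, 32.4 and 30.6 CPM, Lrp5, a coreceptor, rose 2.96-fold, Sfrp2, a secreted Wnt modulator, fell 14.1-fold and Fzd1 fell 3.18-fold. Of 39 measured TGF-β and BMP genes of 51, 20 fell, 8 rose and 11 did not pass, with a median of -0.38. Grem1, a secreted BMP antagonist, went from 1153, 1225 and 1196 to 306, 264 and 285 CPM, Tgfb2 fell 2.27-fold and Smad7 3.89-fold, while Id1, a BMP target, rose 3.15-fold. Of 20 measured clock genes of 23, 12 fell and 5 rose. Per2 rose 3.06-fold with Per1, and Dbp and Per3 fell 5.73-fold and 4.09-fold. Each group was sampled at 1 time a day, so a phase of the clock could not be read.

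Of 36 genes of glutathione and the NRF2 response 12 rose, 11 fell and 13 did not pass, beside 26.2% of all genes that rose and 27.9% that fell. Cat, catalase, rose 5.83-fold from 85.1, 86.1 and 85.5 to 479, 525 and 494 CPM, and Gclc, the rate-limiting enzyme of glutathione synthesis, 2.93-fold. Hmox1, heme oxygenase, fell 1.94-fold and Sod3, the extracellular dismutase, 5.11-fold. The list of folding and quality control in the endoplasmic reticulum had 8 rises, 8 falls and 11 genes that did not pass, to be read beside the same shares of all genes.

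Among the enzymes that write and erase H3K4 methylation 4 of 21 rose, 3 fell and 14 did not pass, with none above 2-fold. Kdm5b went from 196, 195 and 208 to 135, 139 and 137 CPM (-0.54 ± 0.06, adjusted P = 5.3e-10). Kdm5a was at 201, 186 and 203 against 176, 181 and 182 CPM (-0.13 ± 0.09, adjusted P = 0.22), and Kdm5c at 167, 169 and 173 against 180, 183 and 173 CPM (0.07 ± 0.07, adjusted P = 0.35). Kmt2c, a methyltransferase, rose 1.57-fold.

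**Figure D5:**
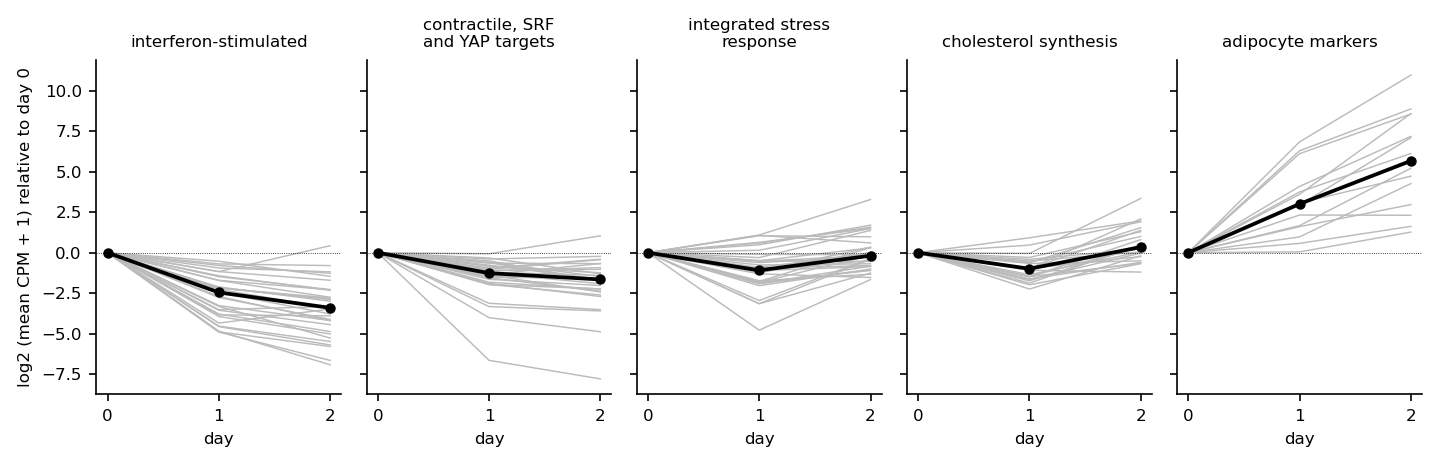
Log2(mean CPM + 1) of the vehicle samples at days 0, 1 and 2 relative to day 0, for 5 lists. Grey lines are genes and the black line is their median. From day 1 to day 2, 13 of 14 adipocyte markers, 22 of 24 cholesterol genes and 25 of 33 stress response genes rise, while 25 of 31 interferon-stimulated and 17 of 29 contractile genes fall.

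The second day continued some of these changes and turned others. Both contrasts use the day 1 samples, so each list is given by its own counts. Beside these counts, 22.3% of all genes rose and 22% fell over the second day, and the median over all genes was 0.0082 on the log2 scale. From day 1 to day 2 all but 1 of the 14 adipocyte markers rose (median 2.53), as did 25 of 28 genes of fatty acid and triglyceride synthesis (1.06) and 71 of 77 respiratory chain genes (0.75). Interferon-stimulated genes fell in 25 of 31 (-1.04). The integrated stress response turned, with 25 of 33 genes rising (0.89), among them Slc7a11 to a mean of 6.20 CPM, Trib3 to 27.1 CPM and Asns to 232 CPM. S phase genes rose in 28 of 55 with none falling (0.34), and G2 and M phase genes fell in 22 of 63 and rose in 5 (-0.19). Of the 25 glucocorticoid-responsive genes 9 rose and 8 fell, and of the 21 genes of the cAMP list 5 rose and 12 fell, among them Nr4a1 to 36.4 CPM and Pde4d to 49.8 CPM.

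The same day was compared with that of cells that had carried C70 until day 0 (4 samples a day). The difference of the first-day changes passed the threshold in 1038 genes (8.68%) in which the log2 fold change after C70 was the higher and in 625 genes (5.23%) in which it was the lower. This contrast uses the vehicle samples again, so each list is given by its counts alone. The change after C70 was higher in 20 of 31 interferon-stimulated genes and lower in none, and Oas2 fell by 3.07 after C70 and by 5.26 after vehicle (adjusted P of the difference 2.7e-05). It was higher in 14 of 36 matrix and adhesion genes and lower in 1, with Spp1 at -1.6 after C70 and -4.29 after vehicle. It was lower in 17 of 24 cholesterol genes and higher in 1, and lower in 17 of 55 S phase genes, 19 of 63 G2 and M phase genes, 17 of 50 ribosome biogenesis genes and 7 of 14 adipocyte markers. Of 34 measured PPARγ targets 6 had the higher and 10 the lower change after C70. Ccne2 rose by 0.87 after C70 and by 1.69 after vehicle (adjusted P of the difference 3.4e-04), Acsl1 by 2.74 and 4.29 (1.1e-14), and Cebpa by 2.26 and 3.16 (8.2e-06). Glucocorticoid-responsive genes differed in 7 of 25, with 4 higher and 3 lower, and the difference did not pass for Fkbp5, Tsc22d3 or Zbtb16.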

How the data were processed

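Total RNA of 3T3-L1 cells was sequenced by the authors as strand-specific RNA-seq. The deposited values are counts per gene, which the authors made from reads aligned to GRCm38 with STAR 2.7.2a (edgeR 3.26.8 is also named in the submitters' processing notes); the counting program, its strand setting and the filter that left 11959 genes are not given in the sources used here. Gene symbols came from GENCODE M21 (all 11959 IDs matched).

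Counts of all 29 samples were fitted with edgeR 4.0.16 in R 4.3.3 (TMM factors, quasi-likelihood test, 1 coefficient a group), so that all groups shared the estimate of the spread (biological coefficient of variation 0.0594). P values were adjusted over all 11959 genes by the Benjamini-Hochberg method. The threshold was an adjusted P below 0.05 with a log2 fold change beyond 0.32 in size, or beyond 2-fold. CPM used TMM-scaled library sizes. Errors of log2 fold changes are SE worked back from the test, as the log2 fold change over the square root of its F statistic. The log2 fold change used there was the one before the fit's shrinkage. Ratios of low read counts used library totals without TMM factors, and their exact 95% intervals cover counting error only. Library totals of the 6 samples ran from 18504079 to 23795108. The fit was tested on simulated data with known changes before use.

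Named genes were the 15 largest rises and falls with a mean of at least 5 CPM, key members and the 3 largest rises and falls of each list, the KDM5 genes and genes whose promoter is printed. Other members are examples of their list's count. The comparison, the 42 gene lists and this rule were chosen with earlier results of these data known. Promoters of RefSeq (GRCm38.p6) were searched for exact motifs on both strands. The interferon, C/EBP-ATF and CArG motifs were added after seeing the data. Alternatives were other scalings, limma 3.58.1 (voom and quantile), DESeq2 1.42.0, other filters and fold thresholds, a replicate block and leaving out each sample. The spread of same-numbered samples did not pair them.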

Additional observations from a re-analysis of the deposited data

Results flagged for a closer look

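The first-day change after C70 was tested against that after vehicle in the fit of all samples, and 16 of 29 genes of the largest rises and falls, Mc5r left aside, passed the threshold. In all 16 the change was smaller after C70, a direction that choosing genes by their large change in vehicle favours. No levels of the C70 samples are given here, so a different day 0 level and a different response cannot be told apart. Of all 11959 genes 1663 passed (8.68% with the higher and 5.23% with the lower change after C70), and of the 2034 genes called above 2-fold in vehicle 724 passed. Values are the log2 fold change after C70 minus that after vehicle, both from day 0 to day 1, and each difference uses the vehicle samples that named the gene.

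Of the genes that rose in vehicle, G0s2, the inhibitor of ATGL, differed by -3.51, Cidec, the droplet fusion protein, by -1.32, Abhd15 by -1.19 and Cd36, the fatty acid transporter, by -0.64. Of the interferon-stimulated genes that fell in vehicle, Oas2 differed by 2.19, Ifit2 by 1.82, Gbp2 by 1.30, Ifit1 by 1.20, Oasl2 by 1.07, Usp18 by 0.88 and Isg15 by 0.80. Of the other falls, Spp1, or osteopontin, differed by 2.69, Ppef1 by 2.36, Cdsn by 1.82, Kif21b by 1.19 and Timp3 by 1.17. By edgeR's quasi-likelihood test the adjusted P values lay between 1.5e-18 for Spp1 and 0.039 for Ifit1.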

How the results depend on the processing

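Of 4796 log2 fold changes of the 303 named genes under 16 alternatives, 4740 kept their direction and their side of the threshold, 35 lost and 7 gained a call, and 14, all of genes without a call, changed sign. Without the tertile of genes with the lowest expression, 2202 genes fell, 481 rose and 739 fell above 2-fold, and 414 genes had the lower change after C70, since fewer genes were tested; at a fold above 1.5, 1840 rose and 2223 fell. Leaving out each sample in turn gave 3042 to 3141 rises and 3246 to 3373 falls, 804 to 837 and 1221 to 1253 above 2-fold, and 880 to 1034 higher and 486 to 680 lower changes after C70. Library totals alone moved the split to 3395 rises and 3094 falls, and quantile scaling with limma to 3468 and 3033. Same-numbered samples did not deviate together (r = -0.0308, 0.116 and -0.0506), and replicates 1 and 3 did not correlate best with their own number. With the replicate block, fitted on the 6 samples, 3119 genes rose and 3349 fell (3124 and 3350 without it), 809 and 1225 above 2-fold, and in the C70 contrast, fitted on its 14 samples, 1191 were higher and 663 lower (1200 and 670 without it). Of 624 values of 39 list medians under the alternatives, 593 moved by less than the replicate SD, 26 by more and 5 changed sign. The cAMP median (0.38) was 0.893 without that tertile, 0.553 with quantile scaling and 0.349 to 0.508 when a sample was left out. The insulin and IGF median (-0.04) was 0.00146 with totals alone and 0.0956 without that tertile, and -0.0619 to 0.00391 when a sample was left out. The H3K4 median (0.05) was -0.0191 without that tertile and -0.0053 to 0.0589 when a sample was left out. Pcna (-0.01) was 0.00331 with RLE, 0.00317 with upper-quartile, 0.0338 with totals alone, 0.0262 with quantile scaling, 0.00121 with limma-voom, 0.00328 with DESeq2, and -0.0726 to 0.0913 when a sample was left out. Pdgfra (-0.04) was 1.69e-05 with totals alone and -0.114 to 0.0127 when a sample was left out, Slc2a1 -0.0382 to 0.0868 and Mrps18b, of the mitochondrial ribosome, -0.0234 to 0.0641. The cause was not tested for the sign changes.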

Other observations

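Transcripts of the mitochondrial genome rose in 6 of 7 measured genes, with a median log2 fold change of 0.45. mt-Cytb, cytochrome b of complex III, went from 4791, 4930 and 4992 CPM to 7606, 7672 and 7972 CPM, and mt-Co1, a subunit of complex IV, went from 8482, 8634 and 8689 to 11947, 11321 and 11863 CPM. mt-Nd6, which is encoded on the other strand, was at 0.29 and did not pass.

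The list of chaperones and the unfolded protein response had 8 rises, 8 falls and 11 genes that did not pass. It moved in both directions, as did all genes, of which 26.2% rose and 27.9% fell. Dnajb9, a target of XBP1, rose 3.51-fold from 20.3, 18.4 and 19.9 to 68.6, 70.3 and 66.9 CPM, Xbp1 rose 2.05-fold and Syvn1, a ubiquitin ligase of the endoplasmic reticulum that overlaps Mrpl49 on the other strand, 2.02-fold. Herpud1, which is also a target of ATF4, fell 2.55-fold, and the oxidase Ero1l fell 1.7-fold. The chaperones Hspa5 and Hsp90b1 were at 0.14 and -0.26 and did not pass. Of 4 measured osteogenic and chondrogenic markers 1 rose, 2 fell and 1 did not pass. Comp, a cartilage matrix protein, rose 1.82-fold from 1.41, 0.727 and 1.58 to 3.19, 1.88 and 1.79 CPM, and did not pass without day 1 replicate 1 (adjusted P = 0.083). Spp1 fell by 4.29 on the log2 scale, Runx2, the osteoblast regulator, fell 2.25-fold from 98.8, 83.9 and 105 to 41.8, 42.3 and 44.3 CPM, and Sox9, the chondrocyte regulator, was at 0.12 and did not pass.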
